A study of Mus musculus with 6 samples.

Results

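The genes described here are Myc, Pvt1, A1bg, Fam49b and Asap1, 5 of the 40824 genes in the deposited count table. They lie on mouse chromosome 15 and were chosen by name because earlier results of these data had shown them to differ between stages of pregnancy, so their differences between stages are given below as a description. Where the fit over all genes called them is stated as part of that description, and it is no independent evidence. The samples were hepatocytes, the main parenchymal cells of the liver, from female wild-type (genotype WT) C57BL/6J mice mated at about 8 weeks of age, and the sample titles call them nuclei. They were read by Smart-seq3xpress, a plate-based full-length single-cell RNA-seq method, at gestation stages G0 and G14.5, named by the day of gestation, and at P7L, on postpartum day 7 during lactation. At each stage 1 library came from nuclei labelled as isolated by perfusion and 1 from nuclei labelled as isolated from liver tissue, which makes 6 libraries and 1567 nuclei in all. The labels name no animal, so it is not known how many mice stand behind a library, and the test values below measure only the spread between libraries, which may be technical.

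MYC is a basic helix-loop-helix transcription factor that binds E-box DNA as a dimer with MAX and drives genes of ribosome production, metabolism and cell growth. Its RNA and its protein are short-lived, and in adult liver it is low at rest and induced when hepatocytes prepare to divide. Pvt1 is a long non-coding RNA gene directly downstream of Myc, and in human cancers the pair is often gained together. A1bg encodes alpha-1-B glycoprotein, a plasma protein of the immunoglobulin superfamily that hepatocytes secrete and that is female-biased in mouse liver. Fam49b, also called Cyrib, encodes a protein that binds active RAC1 and restrains the actin-building WAVE complex, and Asap1 encodes a GTPase-activating protein for ARF GTPases that acts at membranes and focal adhesions.

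On GRCm38 (GENCODE M21) the 5 genes span 3.49 Mb of chromosome 15. Myc runs from 61985391 to 61990374 on the plus strand, and no other annotated gene overlaps it. Pvt1 starts 52.6 kb after the Myc start, runs from 62037986 to 62378096 on the plus strand and is annotated as a lincRNA. A1bg lies on the other side of Myc, from 60896859 to 60923012 on the minus strand. Fam49b (63929097 to 64060478) and Asap1 (64086857 to 64382919) are neighbours on the minus strand, 2075 kb and 2398 kb from the Myc start. In the annotation the antisense gene 4930402D18Rik overlaps part of A1bg, and the antisense genes Gm20717 and 1700010G06Rik lie within Asap1. The strand setting of the counting is not given in the sources used here, so reads of these genes and of their antisense partners cannot be told apart. Gm20717, the snRNA gene Gm25628 in Fam49b and 4 small RNA genes in Pvt1 held 0 reads in every library.

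The RefSeq promoter table matched 1 of the 5 genes, A1bg, whose promoter is shown as that of a gene with a large difference between stages. Myc, Pvt1, Fam49b and Asap1 were not matched. The window is 300 bases of RefSeq sequence on GRCm38.p6, chr15:60921221-60921520, minus strand, 250 bases before and 50 after the start that RefSeq annotates. That start lies inside the gene as GENCODE M21 gives it above, so the window is not upstream of the GENCODE start. Capitals mark the matches to 2 of the 4 motifs searched, a palindromic STAT5 site (TTCNNNGAA) and an E-box (CACGTG), the element that MYC and MAX bind.

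A1bg promoter: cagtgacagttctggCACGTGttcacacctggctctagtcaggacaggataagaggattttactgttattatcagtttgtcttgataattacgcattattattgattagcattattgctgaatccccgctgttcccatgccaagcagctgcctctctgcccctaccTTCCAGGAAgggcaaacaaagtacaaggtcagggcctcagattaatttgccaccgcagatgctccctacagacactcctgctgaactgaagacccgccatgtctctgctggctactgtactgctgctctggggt

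The E-box match begins at position -235 and the STAT5 match at position -84 relative to the start; each motif is its own reverse complement in the letters searched, so both strands give the same site, and the matches do not overlap. E-box letters were present in 7.15% of 32851 promoter windows of the same length, and STAT5 letters in 8.30%. TATAAA, present in 13.6% of windows, and CCAAT, present in 37.4%, were in neither strand of this window. These are matches of letters in a window and not measured binding.

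The 6 libraries held 184 to 308 nuclei and 226030591 to 379767336 reads. The 10 hepatocyte marker genes were read in every library and took 1.71% to 2.25% of reads. Markers of Kupffer cells (0.000609% to 0.00136%), endothelial cells (0.00129% to 0.00434%, highest in the G0 perfusion library), stellate cells (0.00106% to 0.00299%), T and NK cells (0.000174% to 0.000418%), B cells (3.26e-05% to 0.000249%), neutrophils (8.86e-06% to 2.57e-05%) and red cells (3.73e-05% to 0.00102%) were far lower, and those of cholangiocytes took 0.0110% to 0.0191%. Among defining markers, Lrat of stellate cells, Ms4a1 of B cells, Retnlg of neutrophils and Alas2 of red cells were at 0 in all 6 libraries, Clec4g of endothelial cells in both P7L libraries and Krt19 of cholangiocytes in 1 G0 library, and no nucleus gave over 1% of its reads to any of these lists. Of the 12 genes listed as cycling markers, nuclei with reads of at least 3 numbered 2 and 7 (G0), 24 and 33 (G14.5), 27 and 29 (P7L) in the perfusion and the liver tissue library of each stage. In reads summed over the nuclei of a library, fewer nuclei with a transcript and less transcript per nucleus cannot be told apart, and the shares of nuclei given below address this only down to the depth read.

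Myc was almost unread at G0, was highest at G14.5 and was intermediate at P7L. In reads per 1000000 reads (CPM), in the perfusion and the liver tissue library of each stage, it had 0.906 and 1.23 CPM (G0), 12.4 and 15.5 CPM (G14.5), 6.49 and 1.94 CPM (P7L). The 3 stages did not overlap, and the P7L libraries differed from each other more than those of either other stage. The edgeR fit with terms for stage and preparation put Myc at G14.5 13.1-fold above G0 (log2 fold change 3.71 ± 0.65, SE, 2 libraries a stage). The differences were 1.88 ± 0.63 for P7L over G0 and -1.83 ± 0.62 for P7L over G14.5. On the log2(CPM + 0.5) scale, perfusion minus liver tissue was -0.296 at G0, -0.315 at G14.5 and 1.52 at P7L. P7L over G0 was 2.31 on that scale within perfusion and 0.50 within liver tissue, and without the P7L perfusion library the fitted value was 0.690.

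Pvt1 shared the increase at G14.5 with Myc but stayed high at P7L. Its levels in the perfusion and the liver tissue library of each stage were 20.3 and 22.5 CPM (G0), 152 and 132 CPM (G14.5), 112 and 143 CPM (P7L). Both later stages lay far above G0 and overlapped each other. The fitted fold change was 6.67 for G14.5 over G0 (log2 2.74 ± 0.20) and 5.95 for P7L over G0 (2.57 ± 0.20), against a P7L over G14.5 difference of -0.17 ± 0.19. The last value had no stable sign, being -0.44 within perfusion and 0.115 within liver tissue on the log2(CPM + 0.5) scale.

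A1bg was high at G14.5 alone. Its levels in perfusion and liver tissue were 43.9 and 67.2 CPM (G0), 221 and 243 CPM (G14.5), 44.3 and 32.8 CPM (P7L). The G14.5 libraries stood apart from all others, while P7L and G0 overlapped through their perfusion libraries. The fold change was 4.20 for G14.5 over G0 (log2 2.07 ± 0.26), and P7L was 5.97-fold lower than G14.5 (log2 -2.58 ± 0.26). P7L over G0 was -0.51 ± 0.25, with 0.0151 within perfusion and -1.02 within liver tissue.

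Fam49b and Asap1, adjacent on the chromosome, had the same shape at smaller size. Fam49b had 199 and 176 CPM (G0), 307 and 343 CPM (G14.5), 175 and 167 CPM (P7L), perfusion before liver tissue. Its G14.5 libraries were above all others, with log2 fold changes of 0.80 ± 0.14 for G14.5 over G0, -0.93 ± 0.14 for P7L over G14.5 and -0.13 ± 0.14 for P7L over G0. Asap1 had 294 and 335 CPM (G0), 484 and 508 CPM (G14.5), 351 and 322 CPM (P7L) in the same order. The corresponding differences were 0.66 ± 0.13, -0.56 ± 0.13 and 0.10 ± 0.13, and its P7L and G0 libraries overlapped.

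**Figure D1:**
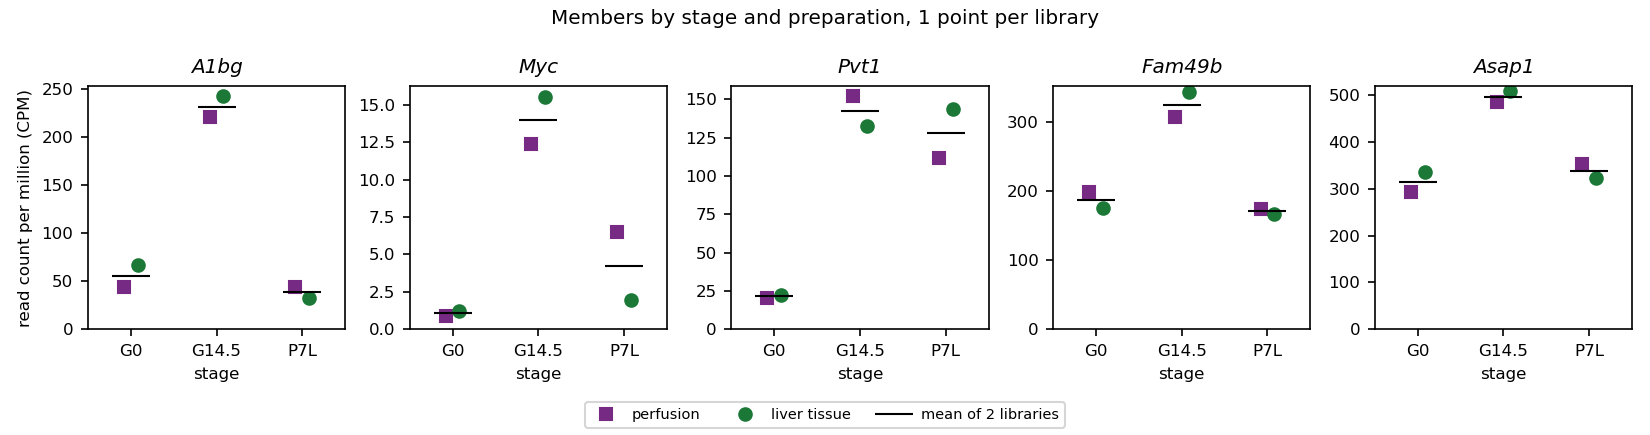
Reads per 1000000 reads (CPM; vertical axis, each panel on its own scale from 0) of the 5 genes at G0, G14.5 and P7L; each point is 1 library (squares perfusion, circles liver tissue) and the bar is the mean of 2 libraries. All 5 genes are highest or near highest at G14.5, Pvt1 at P7L overlaps its G14.5 values, and the P7L libraries of Myc are 6.49 and 1.94 CPM.

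A gene was called where the edgeR quasi-likelihood test gave a Benjamini-Hochberg adjusted p under 0.05 over the 15015 genes tested, among which all 5 genes passed the filter on low counts. All 5 were called higher at G14.5 than at G0, a comparison in which 11.9% of genes were called and 6.93% were called higher. Pvt1 was called higher at P7L than at G0, with 2.92% of genes called and 1.56% called higher. A1bg, Fam49b and Asap1 were called lower at P7L than at G14.5, with 9.26% called and 5.06% called lower. Since these comparisons chose the genes, nothing is read from the counts; the log2 fold changes of G14.5 over G0 stood at percentiles 79.0 (Asap1) to 98.7 (Myc) of all tested genes, whose median was -0.0106. The comparisons share their libraries, and the calls depend on single libraries: without the G14.5 liver tissue library only A1bg and Pvt1 were called higher at G14.5 than at G0, with Myc at 3.12, Fam49b at 0.656 and Asap1 at 0.641, and without the G14.5 perfusion library Asap1, at 0.69, was not called. Of the calls at P7L against G14.5, A1bg alone remained when the G14.5 liver tissue, the P7L liver tissue or the P7L perfusion library was left out, where Fam49b stood at -0.788, -0.903 and -0.959, and Asap1 at -0.538, -0.433 and -0.686; without the G14.5 perfusion library Asap1, at -0.585, was not called. DESeq2 called Myc lower as well, and Myc higher at P7L than at G0.

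The fitted differences between preparations, taken over the 3 stages, were at most 0.30 in size. Perfusion over liver tissue was -0.11 ± 0.20 (A1bg), 0.30 ± 0.51 (Myc), -0.10 ± 0.15 (Pvt1), 0.03 ± 0.11 (Fam49b) and -0.04 ± 0.10 (Asap1) on the log2 scale, over 3 stages. None of the 5 was called by edgeR or DESeq2, and none had an unadjusted p under 0.05, against 0% of all genes called by edgeR (707 with an unadjusted p under 0.05, and 85 called by DESeq2). Each of the 5 genes had both signs over the stages, so the fitted values average differences in opposite directions. On the log2(CPM + 0.5) scale, perfusion minus liver tissue of A1bg was -0.609 at G0, -0.137 at G14.5 and 0.430 at P7L. That of Myc was -0.296, -0.315 and 1.52. No comparison of the 2 preparations within a stage can be tested, as each has 1 library.

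Levels per length give only a rough comparison between the genes. Which gene length the authors used is not known here, and the annotated spans run from 4984 bases (Myc) to 340111 bases (Pvt1). Whether the values are comparable between genes was not tested. The authors' deposited values, which are divided by a gene length and scaled per nucleus, averaged over the 6 libraries 18.7 for A1bg, 18.6 for Asap1, 17.7 for Fam49b, 8.57 for Pvt1 and 0.777 for Myc. The ranges over libraries were 8.46 to 38.1 for A1bg, 15.1 to 24.9 for Asap1 and 13.3 to 26.3 for Fam49b, so the order of these 3 levels is within their spread. Pvt1 ran from 1.91 to 12.9, which overlapped A1bg and lay below every value of Fam49b and Asap1, and Myc, at 0.133 to 1.73, was below every value of Pvt1.

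The share of nuclei with reads separated Myc from its neighbours. Nuclei were first cut at random to an equal depth of 250000 reads, leaving 1532 of them. Myc was then read in 2.76 and 3.80% (G0), 22.0 and 19.2% (G14.5), 15.5 and 10.5% (P7L) of nuclei in perfusion and liver tissue. The exact 95% intervals of the G14.5 libraries (17.4% to 27.1% and 14.3% to 24.97%) were above those of the G0 libraries (0.903% to 6.33% and 1.75% to 7.09%). Such intervals cover counting error only, and reads that carry no molecular identifier are not separate molecules. Pvt1 was read in 47.0 and 50.2% (G0), 90.7 and 89.7% (G14.5), 93.9 and 93.5% (P7L) of nuclei, so both later stages were far above G0. A1bg was read in 64.6 and 74.7% (G0), 98.3 and 98.2% (G14.5), 80.1 and 85.0% (P7L) of nuclei and was lower at P7L than at G14.5 in both preparations. Fam49b (89.5% to 97.3%) and Asap1 (97.2% to 100%) were read in nearly every nucleus at each stage. The median number of genes read per nucleus at this depth also differed by stage. It was 5386 and 5650 (G0), 6037 and 6001.5 (G14.5), 6753 and 6701 (P7L) in perfusion and liver tissue. How far this difference over all genes enters the shares of single genes was not tested.

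**Figure D2:**
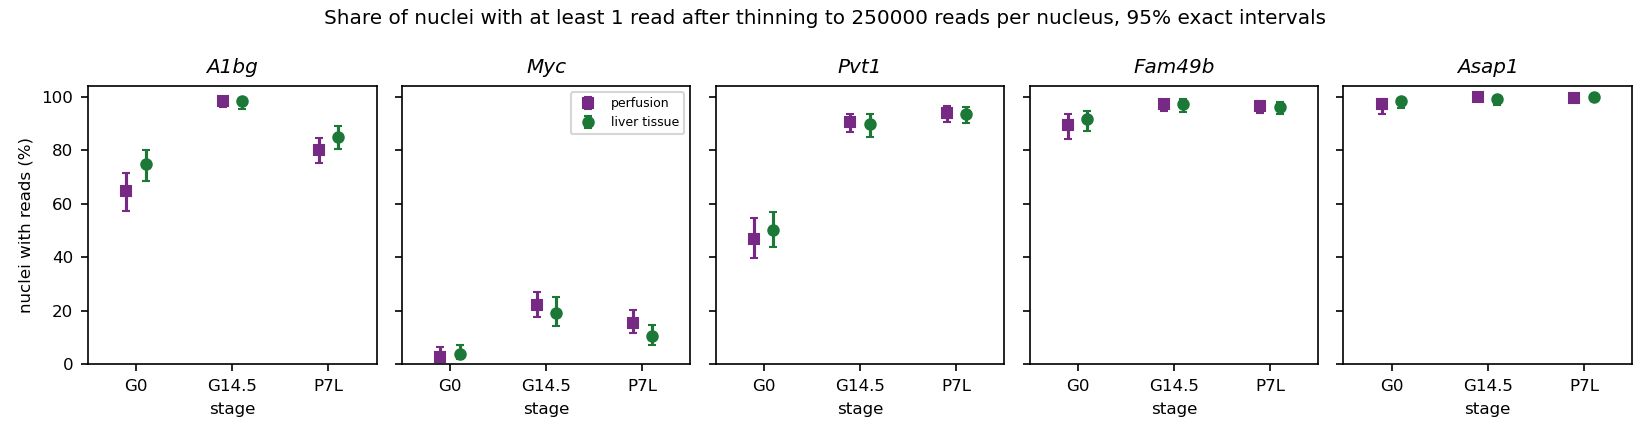
Share of nuclei with at least 1 read (vertical axis, percent) after thinning to 250000 reads per nucleus, by stage; squares are perfusion and circles liver tissue libraries, with exact 95% intervals for counting error. Myc is at 2.76% to 22.0% of nuclei, Pvt1 is at 47.0% and 50.2% at G0 and at 89.7% to 93.9% at both later stages, and Asap1 is near 100% throughout.

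The reads of Myc came from very few nuclei. The 10% of nuclei with most Myc reads held 92.4% to 100% of them in each library, against 47.4% to 75.8% for Pvt1 and 29.7% to 55.8% for Asap1. At G0 Myc was read in 4.89 and 5.16% of all nuclei, so the 100% there had to follow. Mean thinned reads per nucleus were 0.260 to 3.63 for Myc, 5.11 to 37.4 for Pvt1 and 79.1 to 126 for Asap1. The contrast between the genes therefore cannot tell concentration in few nuclei from a low level. A single nucleus held 76 of 228 and 62 of 278 Myc reads in perfusion and liver tissue of G0, 1361 of 4274 and 732 of 3896 in those of G14.5, and 434 of 2234 and 79 of 543 in those of P7L, which is 14.55% to 33.3% of them. There were 8 nuclei with at least 100 Myc reads in each G14.5 library and in the P7L perfusion library, and none in the other 3 libraries. With the top nucleus of each library left out, an alternative added after the data were seen, the log2 fold changes of Myc were 3.76 for G14.5 over G0, 2.1 for P7L over G0 and -1.65 for P7L over G14.5. Those top nuclei held 2 to 350 Pvt1 reads.

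In the median nucleus the differences of Pvt1, A1bg, Fam49b and Asap1 between G14.5 and G0 were wider than in the library sums. The median nucleus of the perfusion and the liver tissue library had 2.41 and 2.60 CPM (G0), 70.5 and 54.9 CPM (G14.5), 61.9 and 81.0 CPM (P7L) of Pvt1. For A1bg the medians were 7.06 and 12.5 CPM (G0), 151 and 169 CPM (G14.5), 13.7 and 17.7 CPM (P7L). The 10% of nuclei with most A1bg reads held 60.0 and 65.7% (G0), 35.3 and 34.7% (G14.5), 50.3 and 46.7% (P7L) of them. A1bg reads were thus spread over more nuclei at G14.5 than at the other stages. The fall from G0 to G14.5 was not special to A1bg. This share went from 75.2 and 75.8% to 47.4 and 49.5% for Pvt1, and from 63.2 and 63.7% to 38.4 and 39.6% for Fam49b. For Asap1 it went from 55.8 and 46.6% to 36.7 and 29.7% (perfusion, then liver tissue). Fam49b medians were 34.3 and 44.6 CPM (G0), 162 and 186 CPM (G14.5), 114 and 76.4 CPM (P7L). Those of Asap1 were 135 and 164 CPM (G0), 326 and 399 CPM (G14.5), 273 and 262 CPM (P7L), also highest at G14.5. At P7L the medians of A1bg, Fam49b and Asap1 were above those of G0 in both preparations. In the library sums, P7L over G0 was -0.51 ± 0.25, -0.13 ± 0.14 and 0.10 ± 0.13 for these genes on the log2 scale. As given above, fewer genes were read per nucleus at G0 than at either later stage at equal depth. The part of this library-wide difference in the medians was not tested.

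Nuclei with cycling markers and other nuclei had Myc reads in shares whose intervals overlapped. At G14.5, 29.2% of 24 cycling nuclei and 21.4% of the other nuclei of the perfusion library had Myc reads, and in the liver tissue library these shares were 21.2% of 33 and 18.8%. At P7L the shares were 7.41% of 27 against 16.4% in perfusion and 6.90% of 29 against 10.9% in liver tissue. Over the libraries, 5 of 12 cycling genes were called higher at G14.5 than at G0 and 4 of 12 at P7L than at G0. Of all genes, 6.93% and 1.56% were called higher in these comparisons. At G14.5 Mki67 was higher by 5.07 ± 0.72 and Top2a by 3.72 ± 0.44 (log2, edgeR adjusted p = 0.0069 and 0.00348). The part of cycling nuclei in the stage differences of Myc was not tested.

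Within a library the 5 genes hardly varied together from nucleus to nucleus. The mean Spearman correlation over the 6 libraries ran from 0.0148 (Myc and Asap1) to 0.0634 (Fam49b and Asap1), over 181 to 300 thinned nuclei a library that share a library and a depth. Myc and Pvt1, the pair whose gene starts are nearest, averaged 0.0275. Their values ran from -0.0779 in the G0 perfusion library to 0.102 in the G14.5 perfusion library. Fam49b with Asap1 and A1bg with Asap1 were above 0 in all 6 libraries, with lowest values of 1.77e-05 and 0.00274. Among all genes read in at least 20% of nuclei of every library, Fam49b with Asap1 stood at percentile 94.8 of the correlations of Fam49b. It stood at percentile 97.7 of those of Asap1. A1bg with Asap1 stood at 93.5 and 96.9 in the same way, and Myc with Pvt1 at 75.7 and 62.6. Some pairs were thus high among weak values, and correlations this weak in sparse counts are no finding.

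**Figure D3:**
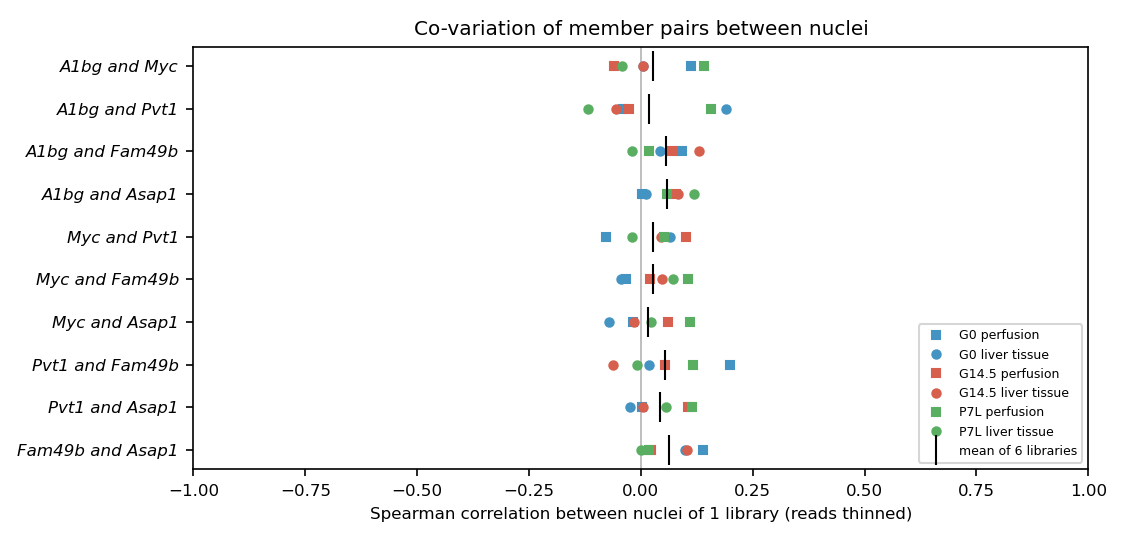
Spearman correlation (horizontal axis) between the thinned reads of each pair of genes over the nuclei of 1 library; each point is a library and the vertical stroke is the mean of 6 libraries. All points lie between -0.118 and 0.200 and all means between 0.0148 and 0.0634.

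The genes that varied most with A1bg between nuclei were 3 genes of secreted plasma proteins. Of 9014 genes read in at least 20% of nuclei of every library, the 3 most correlated with A1bg were Alb (mean Spearman correlation 0.42, range 0.275 to 0.606), which encodes serum albumin, and the apolipoprotein genes Apoa2 (0.374) and Apoa1 (0.36), against a 99th percentile of 0.145. The top correlations of the others were lower, 0.152 for Pvt1 with Aox3, 0.14 for Fam49b with Dyrk1a, 0.113 for Asap1 with Mkrn1 and 0.106 for Myc with Tle1. Across libraries A1bg and Alb were both higher at G14.5 than at G0, by 2.07 ± 0.26 and 1.25 ± 0.13 on the log2 scale. P7L over G14.5 was -2.58 ± 0.26 for A1bg and -0.28 ± 0.13 for Alb, and only at P7L over G0 did their signs part. Per 1000 Alb reads, A1bg had 12.4 and 19.2 reads (G0), 30.2 and 25.6 (G14.5), 6.17 and 5.0 (P7L) in perfusion and liver tissue, lowest at P7L and highest at G14.5. P7L over G0 was 0.97 ± 0.13 for Alb, -0.05 ± 0.13 for Apoa2 and -0.40 ± 0.11 for Apoa1 on the log2 scale, beside -0.51 ± 0.25 for A1bg.

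Position in the liver lobule was a measure that the choice of the genes did not use. Nuclei of each library were ranked by the share of pericentral among pericentral and periportal marker reads, cut into 3 equal classes, and the class at the pericentral end was compared with that at the periportal end over 6 libraries. The test called 554 of 14300 genes (3.87%; 2.06% higher and 1.81% lower at the pericentral end), with 14 of 15 pericentral and 12 of 15 periportal marker genes, which build the ranking, among them. Across stages, 5 of 15 pericentral and 7 of 15 periportal markers were themselves called lower at G14.5 than at G0, beside 5.01% of all genes. None of the 5 genes was called by edgeR or DESeq2, and A1bg and Fam49b had unadjusted p under 0.05, as did 2077 of all genes. A1bg was lower at the pericentral end in 6 of 6 libraries, with a log2 difference of -0.65 ± 0.26 (edgeR adjusted p = 0.261), and Fam49b was lower in 5 of 6, with -0.46 ± 0.19 (adjusted p = 0.3). Both values rest largely on G0: without the G0 perfusion library they were -0.369 for A1bg and -0.254 for Fam49b (adjusted p = 0.281 and 0.445). Fitted by stage, a term added after the values were seen, A1bg was -1.46 ± 0.36 at G0, -0.21 ± 0.35 at G14.5 and -0.34 ± 0.35 at P7L, and Fam49b was -1.11 ± 0.23, -0.05 ± 0.22 and -0.23 ± 0.22 (lowest edgeR adjusted p = 0.07). Pvt1 (0.17 ± 0.17, edgeR adjusted p = 0.743) had both signs, and its log2 difference was 0.0564 without the P7L liver tissue library. It was higher at the pericentral end in the 4 libraries of G14.5 and P7L, with 174 against 140 and 164 against 135 CPM at G14.5 and 142 against 109 and 173 against 102 CPM at P7L (perfusion, then liver tissue). At G0 it was lower there in both, with 16.7 against 21.5 and 19.6 against 24.7 CPM. By stage it was -0.35 ± 0.22 at G0, 0.30 ± 0.22 at G14.5 and 0.57 ± 0.22 at P7L (adjusted p = 0.526, 0.789 and 0.546), and neither later stage differed from G0 past the threshold (adjusted p = 0.65 and 0.775). Asap1 was 0.04 ± 0.11 (adjusted p = 0.918), higher at the pericentral end in 3 of 6 libraries. Of the gene lists described below, MAX partners, MYC targets, ARF genes and RAC1 and WAVE genes had no called gene between the ends by edgeR, with 0, 2, 3 and 1 at an unadjusted p under 0.05 and 0, 1, 1 and 1 called lower by DESeq2. Of the 23 female-biased genes, 7 were called higher and 3 lower at the pericentral end.

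Myc was higher at the pericentral end in 4 of 6 libraries, by 1.11 ± 0.58 on the log2 scale (edgeR adjusted p = 0.437), and these were the libraries of G14.5 and P7L. At G14.5 it had 27.9 CPM at the pericentral end against 3.19 CPM at the periportal end in perfusion, and 19.4 against 5.71 CPM in liver tissue. At P7L it had 5.73 against 2.70 CPM in perfusion and 2.71 against 1.09 CPM in liver tissue. At G0 it had 1 read against 4 reads in perfusion, and 1.66 against 1.84 CPM in liver tissue. The share of nuclei with Myc reads in the G14.5 perfusion library was 38% of 100 at the pericentral end and 19% of 100 at the periportal end; in G14.5 liver tissue it was 23.0% and 18.9% of 74 each. The nucleus with most Myc reads was at the pericentral end in both G14.5 libraries, and without the top nucleus of each library the difference was 0.528 (adjusted p = 0.788), and without the G14.5 perfusion library 0.658 (adjusted p = 0.753; adjusted p over 12 alternatives 0.142 to 0.788). The difference between G14.5 and G0 in the contrast of the 2 ends was 3.19 ± 1.07 for Myc (edgeR adjusted p = 0.508), a term for which 0.00699% of genes were called and none of the 5.

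**Figure D4:**
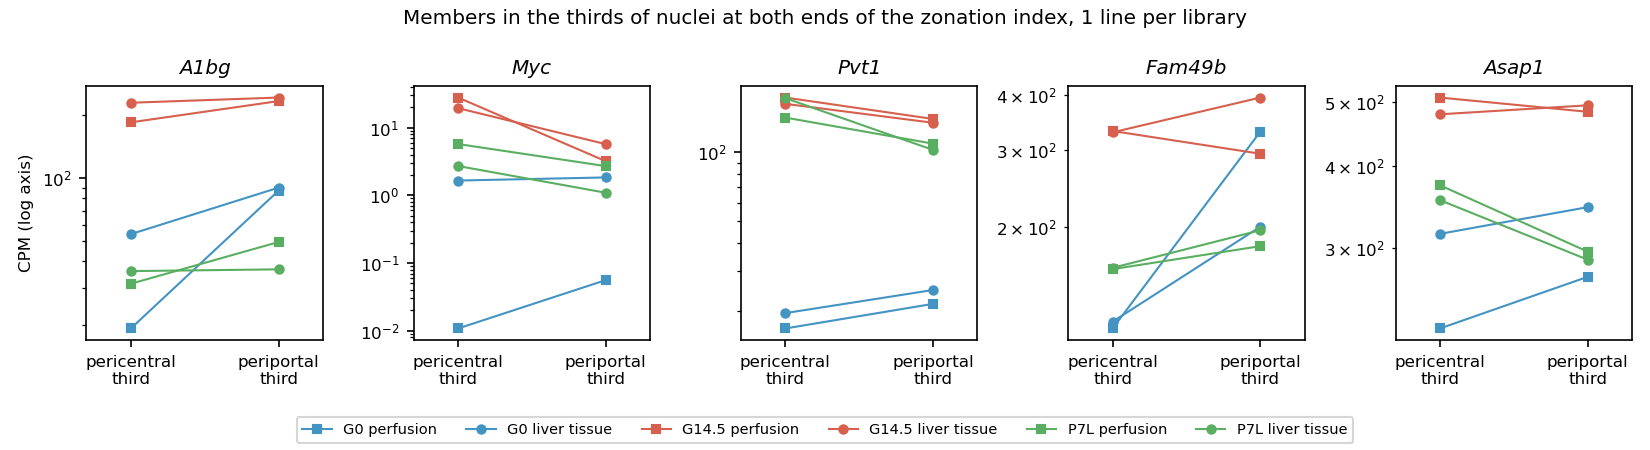
CPM (vertical axis, log scale, each panel on its own) of the 5 genes in the nuclei at the pericentral end (left) and at the periportal end (right) of the marker ranking; each line joins both classes of 1 library. A1bg slopes up towards the periportal end in all 6 libraries, and the lines of Myc slope down in the 4 libraries of G14.5 and P7L.

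Few genes other than Myc separated nuclei with Myc reads from nuclei of the same library without them. In the 4 libraries with at least 10 nuclei in each class, G14.5 and P7L, 186 nuclei had Myc reads after thinning. The edgeR test called 1 of 13308 genes (0.00751%). It was Myc itself, whose reads define the classes, so that call was fixed in advance. An unadjusted p under 0.05 was reached by 593 genes, and DESeq2 called 17. A nucleus without Myc reads at this depth may still hold Myc RNA. Pvt1 had 160 against 139 CPM in perfusion and 132 against 125 CPM in liver tissue of G14.5, in nuclei with against without Myc reads. At P7L it had 125 against 110 CPM in perfusion and 167 against 134 CPM in liver tissue. In these summed reads Pvt1 was thus higher in all 4 libraries, by 0.20 ± 0.12 on the log2 scale (edgeR adjusted p = 0.978). Fam49b was likewise higher, by 0.23 ± 0.11 (adjusted p = 0.978). Asap1 was higher in 3 of 4 libraries (0.08 ± 0.09) and A1bg in 2 of 4 (0.13 ± 0.17). The median thinned Pvt1 reads per nucleus, with against without Myc reads, were 25 against 17 (G14.5) and 21 against 14 (P7L) in perfusion. In liver tissue they were lower with Myc reads, at 14 against 15 (G14.5) and 14 against 21 (P7L). None of the 25 tested MYC target genes of growth and nucleolus was called by edgeR or DESeq2, 1 had an unadjusted p under 0.05, and their median log2 fold change was -0.00931, beside -0.0269 for all genes.

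Of 97 other annotated genes from 2 Mb before A1bg to 2 Mb after Asap1, 48 were in the table and 16 were tested. All 16 lie outside the span from A1bg to Asap1, so no other gene between the 5 genes was tested. Adcy8, Gm21961, Oc90, Hhla1 and Lrrc6 had at most 0.394 CPM in any library, and Rnf139, Zfp572 and Kcnq3 at most 1.54 CPM. The medians below thus include genes near the floor. At G14.5 against G0, 1 was called higher and 1 lower, with a median log2 fold change of -0.0789 (all genes -0.0106), beside 11.9% of all genes called, 6.93% higher and 5.01% lower. At P7L against G0 1 was called higher and 1 lower (median -0.138), beside 2.92% of all genes called, 1.56% higher and 1.36% lower. These are single genes in each direction, described next. At P7L against G14.5 none was called higher and 1 lower (median -0.0617; 4.2% of all genes called higher and 5.06% lower), with 2 at an unadjusted p under 0.05 and the same counts by DESeq2.

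Sqle, which encodes squalene epoxidase of cholesterol synthesis, was called higher at both later stages, as Pvt1 was. It had 38.7 and 48.1 CPM in the G14.5 libraries and 44.4 and 51.0 CPM in the P7L libraries, against at most 16.7 CPM in the G0 libraries. The log2 fold changes were 1.48 ± 0.24 for G14.5 over G0 (edgeR adjusted p = 0.01) and 1.62 ± 0.24 for P7L over G0 (adjusted p = 0.0238). They were 1.32 without the G14.5 perfusion library (adjusted p = 0.07), and 1.39 and 1.84 without the P7L liver tissue and the P7L perfusion library (adjusted p = 0.169 and 0.103). Over 17 alternatives the adjusted p ran from 1.88e-08 to 0.07 for G14.5 and from 1.72e-09 to 0.169 for P7L.

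Fam84b, the tested gene nearest to A1bg on the side away from Myc, was low at P7L. The P7L libraries had 2.36 and 2.53 CPM, against 7.93 to 11.5 CPM in the other 4. The log2 fold change was -2.09 ± 0.39 for P7L over G14.5 (edgeR adjusted p = 0.0174) and -1.98 ± 0.38 for P7L over G0 (adjusted p = 0.0456). The first call was lost when any 1 of the 4 libraries compared was left out (-2.29 to -1.89, adjusted p = 0.0688 to 0.16), and the second was lost in 11 of 17 alternatives (adjusted p up to 0.326). Trib1, a pseudokinase gene of lipid metabolism, had 12.8 and 22.8 CPM at G14.5 against 37.5 and 36.3 CPM at G0. Its difference of -1.11 ± 0.29 was at the threshold (adjusted p = 0.0491) and was lost in 12 of 17 alternatives (adjusted p up to 0.286).

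**Figure D5:**
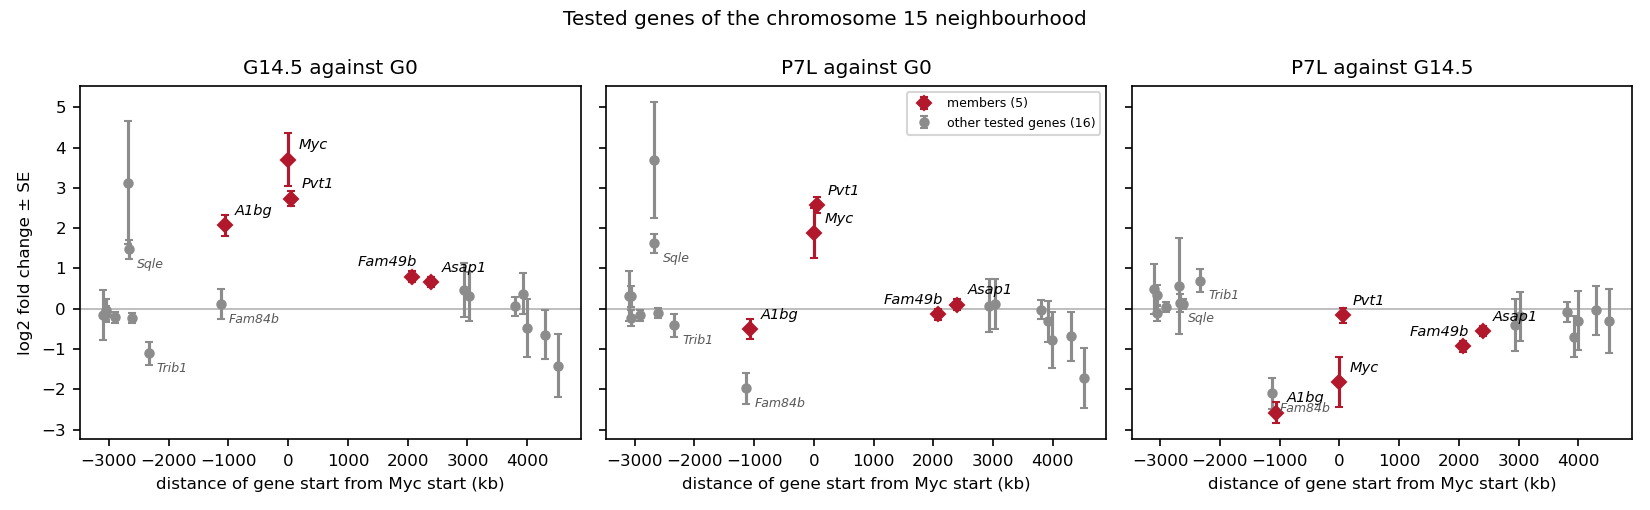
Log2 fold change with its SE (vertical axis) of the 5 genes (red diamonds) and the 16 other tested genes of the window (grey circles) against the distance of the gene start from the Myc start in kb (horizontal axis), for G14.5 against G0, P7L against G0 and P7L against G14.5. In the first panel the 5 genes lie between 0.66 and 3.71, and Sqle and Trib1 are the called genes among the 16 others.

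Genes that MYC works with or acts on were taken from a list of MAX network partners and a list of MYC targets. Of 11 tested partners of the MAX network, 1 was called lower at G14.5 than at G0 and none higher (median log2 fold change -0.329 beside -0.0106 for all genes, of which 11.9% were called). It was Mlxipl, which encodes the sugar-responsive factor ChREBP, with 263 and 419 CPM at G14.5 against 692 and 651 CPM at G0 (-1.02 ± 0.18, edgeR adjusted p = 0.0151; -0.745 and 0.0961 without the G14.5 liver tissue library). At P7L none of the 11 was called against G0 or G14.5 by edgeR, 2 had an unadjusted p under 0.05 in each, and DESeq2 called 1 and 2 higher.

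Of 26 tested MYC targets of growth and nucleolus, 2 were called higher and 1 lower at G14.5 than at G0 (median -0.299), a share near the 11.9% called of all genes. The targets called were 1 higher and none lower at P7L than at G0 (median -0.247), and none higher and 3 lower at P7L than at G14.5 (median 0.0641). Of all genes, 1.56% were called higher at P7L than at G0 and 5.06% lower at P7L than at G14.5. Eif4e, the cap-binding factor of translation, had 200 and 191 CPM at G14.5 against 78.6 and 75 CPM at G0, a log2 fold change of 1.35 ± 0.14 (edgeR adjusted p = 0.0022), called under all 17 alternatives. At P7L it had 133 and 121 CPM, and its calls there (0.72 ± 0.14 over G0, adjusted p = 0.0456; -0.62 ± 0.14 over G14.5, adjusted p = 0.036) were each lost when any 1 of the 4 libraries compared was left out (adjusted p up to 0.315 and 0.332). Ldha, a lactate dehydrogenase gene, had 77.1 and 120 CPM at P7L against 235 and 269 CPM at G14.5 (-1.40 ± 0.19, adjusted p = 0.00514, called under all 17 alternatives). Ldha over G0 at G14.5 was 0.94 ± 0.18 (adjusted p = 0.0201), and 0.728 and 0.656 without the G0 and the G14.5 liver tissue library (adjusted p = 0.0541 and 0.143). Hspd1, a mitochondrial chaperonin gene, was lower at G14.5 than at G0 (-1.03 ± 0.23, adjusted p = 0.0288), and that call was lost without any 1 of 5 libraries (-1.10 to -0.881, adjusted p = 0.0503 to 0.149). Tfrc, the transferrin receptor gene, was at the threshold (-0.84 ± 0.21 for P7L over G14.5, adjusted p = 0.0496) and was lost in 10 of 17 alternatives (adjusted p up to 0.364).

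Female-biased liver genes, the class A1bg belongs to, were called in both directions. Of 23 tested, 3 were called higher and 6 lower at G14.5 than at G0, and 2 higher and 9 lower at P7L than at G0. At P7L against G14.5, 4 were called higher and 7 lower (medians -0.23, -0.785 and -0.293 in this order of comparisons). Of all genes, 6.93% were called higher and 5.01% lower in the first comparison. These shares were 1.56% and 1.36% in the second, and 4.2% and 5.06% in the third. Prlr, the prolactin receptor gene, had 1887 and 1445 CPM in the G0 libraries, 10940 and 13120 CPM in those of G14.5, and 605 and 583 CPM in those of P7L. It was called higher at G14.5 than at G0 (2.86 ± 0.16, edgeR adjusted p = 0.000176) and lower at P7L than at G14.5 (-4.34 ± 0.17, adjusted p = 5.51e-05), each under all 17 alternatives. Cyp2b13, a cytochrome P450 gene with close paralogs whose reads may be shared, had 25.4 and 39.8 CPM at G14.5 against 169 and 259 CPM at G0 (-2.71 ± 0.17, adjusted p = 0.000316). Tox, a chromatin factor gene with 685 and 633 CPM at G14.5 against 1454 and 1436 CPM at G0, was lower at G14.5 than at G0 (-1.13 ± 0.10, adjusted p = 0.00122) and higher at P7L than at G14.5 (0.90 ± 0.10, adjusted p = 0.00273). Slc22a27, a transporter gene, had 17.97 and 20.01 CPM at P7L against 74.1 and 103.2 CPM at G0 (-2.21 ± 0.20, adjusted p = 0.00543). Cyp2c69, also of a family with close paralogs, fell to 27.4 and 25.9 CPM at P7L, against 430 and 377 CPM at G0 (-3.92 ± 0.14, adjusted p = 0.000196).

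Partners of the actin and membrane regulators were taken from 2 further lists. Of 18 tested genes of RAC1 and the WAVE complex, 1 was called higher and none lower at G14.5 than at G0 (median 0.281, beside 6.93% of all genes called higher; 7 at an unadjusted p under 0.05, and by DESeq2 3 higher and 1 lower). At P7L none was called higher, 1 was called lower than at G0 (median 0.0149) and 2 lower than at G14.5 (median -0.306). Of all genes, 1.36% were called lower at P7L than at G0 and 5.06% lower than at G14.5. The gene called higher at G14.5 was Fam49a, the paralog of Fam49b, with 32.3 and 39.1 CPM at G14.5 against 2.15 and 1.08 CPM at G0 (4.46 ± 0.51, edgeR adjusted p = 0.00295). At P7L Fam49a had 1.37 and 2.23 CPM and was called lower than at G14.5 (-4.31 ± 0.50, adjusted p = 0.00292). Both calls held under all 17 alternatives. Cyfip2 and Abi2, genes of WAVE subunits, were called lower at P7L, Cyfip2 against G14.5 (-4.88 ± 1.09, adjusted p = 0.0359; -3.78 to -4.98 and 0.0942 to 0.184 without the G14.5 liver tissue, G14.5 perfusion or P7L liver tissue library) and Abi2 against G0 (-1.09 ± 0.18, adjusted p = 0.0317; -0.848 to -1.27 and 0.0517 to 0.229 without the G0 liver tissue, P7L liver tissue or P7L perfusion library).

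The list of ARF GTPases and ARF GTPase-activating proteins also holds Cttn, Ptk2, Src and Crk, an actin binder, kinases and an adaptor that are neither. Of its 21 tested genes, 3 were called higher and none lower at G14.5 than at G0 (median 0.271; 8 at an unadjusted p under 0.05, and by DESeq2 6 higher and 1 lower), and none higher and 2 lower at P7L than at G14.5 (median -0.328; by DESeq2 1 higher and 5 lower). Of all genes, 6.93% were called higher and 5.01% lower at G14.5 than at G0, and 4.2% and 5.06% at P7L than at G14.5. At P7L none of the 21 was called against G0 by edgeR, 3 had an unadjusted p under 0.05, and DESeq2 called 1 higher. Arf4, an ARF GTPase gene of the Golgi, had 322 and 339 CPM at G14.5 against 184 and 202 CPM at G0 (0.78 ± 0.12, edgeR adjusted p = 0.0101), and 161 and 175 CPM at P7L (-0.97 ± 0.12 over G14.5, adjusted p = 0.00428). Arap2, an ARF GTPase-activating protein gene, had 189 and 180 CPM at G14.5 against 100 and 103 CPM at G0 (0.86 ± 0.16, adjusted p = 0.0156). Ptk2, the focal adhesion kinase gene, had 276 and 266 CPM at G14.5 against 179 and 140 CPM at G0 (0.77 ± 0.16, adjusted p = 0.0244). Without the G14.5 liver tissue library these were 0.749, 0.734 and 0.788 and no longer called (adjusted p = 0.0803, 0.127 and 0.12), and without the G14.5 perfusion library Arf4 (0.816, adjusted p = 0.0526) and Ptk2 (0.76, adjusted p = 0.104) were not called. Ptk2 was also not called without the G0 perfusion library (0.574, adjusted p = 0.053), and Arf4 at P7L against G14.5 was not called without either P7L library (adjusted p = 0.0614 and 0.0606). The call of Ptk2 at P7L against G14.5 (-0.65 ± 0.16, adjusted p = 0.0479) was lost in 9 of 17 alternatives.

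Over the 6 libraries, the genes with profiles most like each of the 5 were found by the root mean square difference of centred log2(CPM + 0.5) values among 15014 genes. A1bg was most like Cnksr3 (0.171), Slc35b1 (0.184) and Manf (0.236), the last an endoplasmic reticulum stress protein gene, where the median gene differed by 1.19. Myc was most like Scg3 (0.292), Col23a1 (0.324) and Smox (0.405), the last a gene of polyamine oxidation, with a median of 1.42. Pvt1 was most like Cyp2d40 (0.192), C330013E15Rik (0.195) and Alpk3 (0.242), with a median of 1.28. Fam49b was most like 5730422E09Rik (0.0517), Kdm5b (0.0557) and Acss3 (0.0582), and Asap1 most like Mapkap1 (0.0464), Smim14 (0.0582) and Acbd3 (0.0584), with medians of 0.54 and 0.459. None of the 5 was among the closest 3 of another.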

How the data were processed

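The first table deposited by the authors holds read counts per gene and nucleus. The submitters' processing notes name Trimmomatic 0.39, HISAT2 2.1.0, featureCounts 1.5.3 and the build GRCm38 (mm10). The other table deposited by the authors is in a TPM-like unit, divided by gene length and scaled to about 100000 for each nucleus (sums of 100214 to 134901, as the values show). Per the labels' protocols whole hepatocytes were picked by hand, while the titles say nuclei. The 92 spike-in rows held 0 reads.

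Counts were summed over all 1567 nuclei by library, with no doublet caller, and fitted with edgeR 4.0.16 (quasi-likelihood, TMM, R 4.3.3) with terms for stage and preparation, leaving 2 residual degrees of freedom and a prior of 5.13. Genes passed filterByExpr and had a read in at least 5% of nuclei of at least 2 libraries, which left 15015. Classes of nuclei by lobule position (16 pericentral and 16 periportal genes) and by Myc reads were fitted with a term for library. The scripts were tested on simulated data.

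The 5 genes, the gene lists and the tests were chosen with earlier results of these data known. Genes named from a list are up to 3 called genes with the smallest p in a comparison; from the window, the called genes; and for likeness, the closest 3. Alternatives were RLE and library-size scaling, other filters, thinning, limma-voom (limma 3.58.1), DESeq2 1.42.0, the authors' values in limma at pseudocounts 1 or 0.1, no preparation or stage term, and each library left out, where the lone library of a stage is assumed to vary like the others. Leaving out top nuclei and the contrast of lobule ends by stage were added after the data were seen.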

Additional observations from a re-analysis of the deposited data

Results flagged for a closer look

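For 3 of the genes the preparations moved in opposite directions in 1 comparison, on the log2(CPM + 0.5) scale, with 1 library per stage and preparation. These differences between preparations were not tested, as no residual degrees of freedom are left for them. A1bg at P7L over G0 was 0.01509 in perfusion and -1.024 in liver tissue. Pvt1 at P7L over G14.5 was -0.4397 in perfusion and 0.1154 in liver tissue. Asap1 at P7L over G0 was 0.258 in perfusion and -0.05322 in liver tissue. None of these 3 differences was called in the fit over both preparations.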

How the results depend on the processing

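Of the 5 genes, 5 were called higher at G14.5 than at G0, 3 on the authors' values with a pseudocount of 1, and 2 to 5 when 1 library was left out. At P7L 1 was called higher than at G0, 2 by DESeq2, 0 on the authors' values with a pseudocount of 1, and 1 to 1 with 1 library left out. At P7L 3 were called lower than at G14.5, 4 by DESeq2 (with Myc), 1 on the authors' values with a pseudocount of 1, and 1 to 3 with 1 library left out. For nuclei with against without Myc reads, 1 gene, Myc itself, was called by edgeR and 17 genes by DESeq2. Over all genes, the P7L against G0 calls numbered 438 by edgeR, 92 with filterByExpr alone, 4 on the authors' values with a pseudocount of 1 and 1901 by DESeq2.

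Libraries pair across stages by preparation, which is a term of the fit. Without this replicate block the calls over all genes numbered 2095 (G14.5 against G0), 578 (P7L against G0) and 1597 (P7L against G14.5), beside 1793, 438 and 1390 with it, and no count of the 5 genes changed. Without the stage term, perfusion over liver tissue was -0.011 for Fam49b, whose sign turned.

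Signs turned in these log2 differences, none of which was called. With 1 library left out, Pvt1 at P7L over G14.5 ran from -0.388 to 0.0556 and Asap1 at P7L over G0 from -0.0241 to 0.229. Perfusion over liver tissue ran from -0.376 to 0.148 (A1bg), -0.38 to 0.703 (Myc), -0.256 to 0.028 (Pvt1), -0.0555 to 0.121 (Fam49b) and -0.128 to 0.0275 (Asap1). Asap1 between lobule ends ran from -0.0132 to 0.106, and A1bg in nuclei with against without Myc reads from -0.0722 to 0.237. With library size alone, Pvt1 at P7L over G14.5 was 0.0383 and Fam49b in perfusion over liver tissue -0.00183. With nuclei split into 2 equal classes by lobule position, Pvt1 was -0.0107 and Asap1 -0.0419. With a minimum of 3 Myc reads, Pvt1 was -0.0879 in nuclei with against without Myc reads. The cause was not tested. Myc rests on 228 to 4274 reads per library, which limits its precision.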
